A study of Sus scrofa with 24 samples.

Results

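Immediate early genes and the feedback genes that go with them were followed in the mononuclear cells of pig blood. The members were every probe set of a porcine Affymetrix array whose gene symbol in the platform's probe-to-gene table was FOS, JUN, EGR1, ATF3, NR4A2, KLF10, ZFP36, SOCS1 or SOCS3. All 9 symbols were found, on 13 probe sets (3 each for EGR1 and SOCS1, 1 for each other gene), of 6033 genes tested with a symbol of their own. For EGR1 and SOCS1 the probe set with the highest mean over all arrays, called the leading one (the second and the third follow it in mean), carries the values below unless another is named.

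RNA came from 24 pigs in 6 groups of 4, each with 2 females and 2 males, 1 array for each animal. The groups were CT (standard commercial pig chow), CT-GE-RES (that chow with resveratrol-enriched grape extract), AD (an atherogenic diet whose added fats were beef tallow at 5.5% and coconut oil at 10%, with cholic acid at 1%), AD-GE (that diet with grape extract), AD-GE-RES (with the enriched extract) and AD-RES (with resveratrol), each fed for 4 months. Grape extract was given at 1 g and resveratrol at 18 mg per 70 kg of body weight. Peripheral blood mononuclear cells (PBMNCs, the lymphocytes and monocytes of blood) were taken from heparinised blood on a density gradient and lysed after washing. The sources used here give no age or breed and no batch of arrays, and the AD and CT feeds differ in fat and cholic acid together. Animals are written here as group and number, 1 and 2 being the females and 3 and 4 the males.

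Immediate early genes are switched on within minutes of a signal by transcription factors already present in the cell, such as SRF and CREB downstream of the MAP kinases, and their mRNAs are short lived. FOS and JUN form the AP-1 factor, and EGR1, ATF3, NR4A2 and KLF10 are further transcription factors of the early wave. ZFP36 (tristetraprolin) binds AU-rich stretches of cytokine mRNAs and speeds their decay, and SOCS1 and SOCS3 are induced by cytokines and inhibit the JAK kinases that signal for them. In blood mononuclear cells these genes answer activation, adhesion and stress.

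Values are log2 of the deposited intensity, 1 unit being a 2-fold step, and a difference is a difference of group means on that scale. The array medians lay between 38.6 and 41.2 in linear intensity. Markers of the named cells were present: the T cell genes CD3E and CD8A had means of 10.18 and 11.40, the B cell gene CD79B 8.73, and the monocyte genes CD163 and CD14 8.76 and 6.05, while the probe set of ITGAM was near the low end at 3.58 and that of CD4 was at 4.54. Genes of other blood cells were read too, with means of 8.78 for the platelet gene PPBP and 8.60 for the erythroid gene HBB. The log2 ratio of 3′ to 5′ signal over GAPDH, actin and EF1A control probe sets, a measure of RNA and labelling quality, ran from 1.37 to 4.39 over the arrays. All 13 member probe sets passed the filter, which left out the lowest 25% of probe sets by mean (under 3.57), and SOCS3 at 3.86 and the third SOCS1 probe set at 3.59 lay just above it. Precision is limited by the number of arrays. Intensities of different probe sets were ranked only for the filter, the choice of leading probe sets and statements of a low level. Levels of different members were not compared with each other.

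FOS, the inducible partner in AP-1, varied more between animals of a group than between groups. FOS in CT was 12.43 and 12.29 in the females and 11.59 and 10.27 in the males, and in AD it was 12.005 and 12.35 in the females and 11.71 and 10.61 in the males. FOS in AD-GE was 10.94 and 11.37 in the females and 10.91 and 12.04 in the males, and in AD-GE-RES it was 10.71 and 11.34 in the females and 10.67 and 11.58 in the males. FOS in AD-RES was 11.62 and 11.47 in the females and 11.63 and 11.86 in the males, and in CT-GE-RES it was 11.67 and 11.85 in the females and 9.80 and 11.76 in the males. All groups overlapped, and the 4 AD-RES animals lay closest together. The lowest animal, CT-GE-RES 3, was at 9.80 and the highest, CT 1, at 12.43, a 6.19-fold range in intensity. Group means spanned only 0.59, from 11.08 ± 0.46 (SD, n = 4) in AD-GE-RES to 11.67 ± 0.75 (SD, n = 4) in AD, and no gap between neighbouring groups in that order exceeded their pooled SD.

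JUN, the other AP-1 partner, had a small spread in CT, CT-GE-RES and AD and a wider one in the supplemented atherogenic groups. JUN in CT was 10.07 and 10.40 in the females and 10.23 and 10.21 in the males, and in CT-GE-RES it was 10.12 and 10.26 in the females and 9.73 and 9.98 in the males. JUN in AD was 10.67 and 10.26 in the females and 10.40 and 10.64 in the males, and in AD-GE it was 9.45 and 10.19 in the females and 10.85 and 11.14 in the males. JUN in AD-GE-RES was 10.62 and 9.44 in the females and 10.20 and 10.79 in the males, and in AD-RES it was 9.93 and 9.16 in the females and 10.31 and 10.32 in the males. The groups overlapped, apart from AD lying just above CT-GE-RES, and the lowest animals were females AD-RES 2, AD-GE-RES 2 and AD-GE 1. From the lowest mean the order was AD-RES, CT-GE-RES, CT, AD-GE-RES, AD-GE and AD, and among neighbours only CT lay above CT-GE-RES by more than their pooled SD (a gap of 0.21 against 0.19).

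EGR1 is a zinc finger factor of the same early wave, and its leading probe set had the widest range of the 9. EGR1 in CT was 10.92 and 10.54 in the females and 10.09 and 9.60 in the males, and in AD it was 10.44 and 10.36 in the females and 9.66 and 9.70 in the males. EGR1 in AD-GE was 9.75 and 10.09 in the females and 9.65 and 10.07 in the males, and in AD-RES it was 9.36 and 9.19 in the females and 9.74 and 10.45 in the males. EGR1 in AD-GE-RES was 9.60 and 8.89 in the females and 7.03 and 10.18 in the males, and in CT-GE-RES it was 10.35 and 10.06 in the females and 6.46 and 9.72 in the males. Males AD-GE-RES 3 and CT-GE-RES 3 stood far below all others, of which the lowest was at 8.89 and the median at 9.90. They were 2.88 and 3.44 below that median. Both were also the lowest animals on the second probe set, at 4.10 and 4.66 against 6.67 to 8.22 in the other 22 pigs. On the third probe set they were lowest again, at 3.38 and 3.29 against 3.77 to 7.48. The low values were therefore shared by all 3 EGR1 probe sets, which went together over the 24 arrays with r from 0.60 to 0.94, a description over probe sets of 1 gene. No gap between neighbouring groups exceeded the pooled SD for EGR1.

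**Figure D1:**
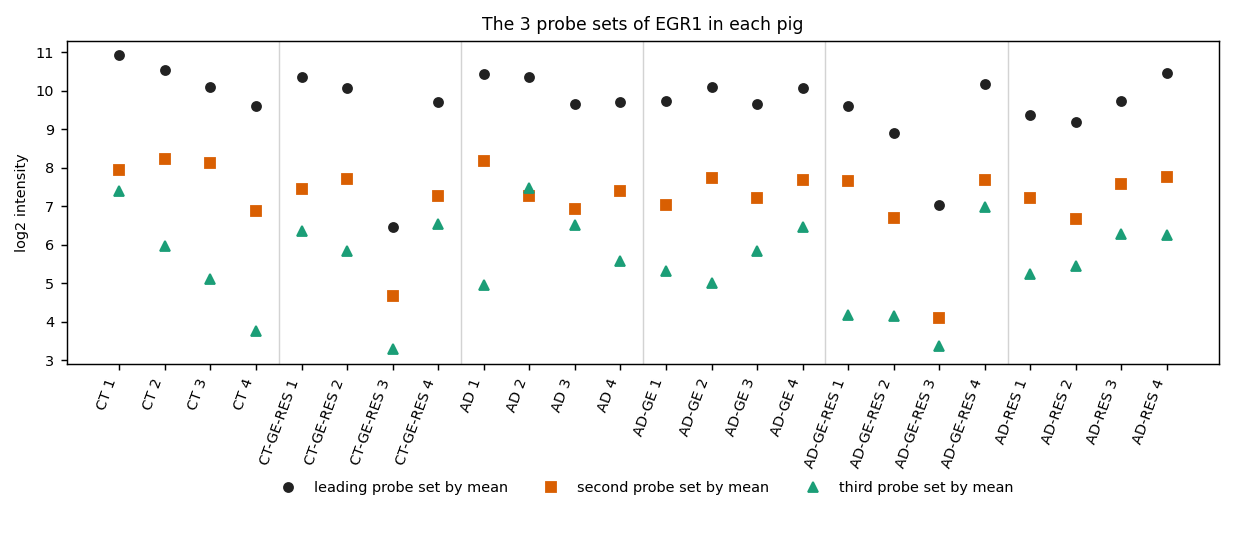
Log2 intensity of the 3 EGR1 probe sets (marker shapes) in each of the 24 pigs, in blocks by diet group along the x axis, with pigs 1 and 2 of a group female and 3 and 4 male. On each probe set CT-GE-RES 3 and AD-GE-RES 3 are the lowest pigs, at 6.46 and 7.03 on the leading one.

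ATF3 is a stress-induced factor of the CREB family. ATF3 in CT was 8.80 and 8.72 in the females and 8.57 and 8.43 in the males, and in AD it was 8.67 and 9.06 in the females and 8.63 and 8.40 in the males. ATF3 in AD-GE was 7.76 and 8.39 in the females and 8.10 and 8.87 in the males, and in AD-GE-RES it was 8.44 and 7.33 in the females and 8.21 and 8.42 in the males. ATF3 in AD-RES was 7.63 and 7.38 in the females and 8.59 and 8.77 in the males, and in CT-GE-RES it was 8.60 and 8.45 in the females and 7.74 and 8.52 in the males. CT and AD lay within a narrow upper band, while each supplemented group held at least 1 pig below every CT and AD pig. In AD-RES both females lay below both males. The order of means ran from AD-RES through AD-GE-RES, AD-GE, CT-GE-RES and CT to AD, and only the step from CT-GE-RES to CT just exceeded the pooled SD (0.304 against 0.303).

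NR4A2, an orphan nuclear receptor that acts without a known ligand, had the widest span of group means, 1.51. NR4A2 in CT was 6.14 and 5.84 in the females and 5.74 and 5.64 in the males, and in CT-GE-RES it was 5.99 and 5.88 in the females and 5.02 and 5.61 in the males. NR4A2 in AD was 7.07 and 6.19 in the females and 6.98 and 7.39 in the males, and in AD-GE it was 6.84 and 7.25 in the females and 6.81 and 7.63 in the males. NR4A2 in AD-GE-RES was 8.36 and 4.74 in the females and 6.55 and 6.53 in the males, and in AD-RES it was 6.28 and 5.63 in the females and 6.44 and 6.72 in the males. Of 16 pigs on the atherogenic diet 14 lay above the highest of the 8 chow pigs (6.14), the exceptions being AD-GE-RES 2, the lowest of all at 4.74, and AD-RES 2. AD and AD-GE overlapped neither chow group, and AD-GE lay above AD-RES. Its order of means was CT-GE-RES, CT, AD-RES, AD-GE-RES, AD and AD-GE, and only the step from CT to AD-RES exceeded the pooled SD of its neighbours (0.43 against 0.36).

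KLF10 is a Krüppel-like factor first known as a target of TGF-beta. KLF10 in CT was 9.94 and 9.64 in the females and 9.99 and 10.24 in the males, and in CT-GE-RES it was 10.22 and 9.85 in the females and 8.63 and 9.28 in the males. KLF10 in AD was 10.14 and 10.62 in the females and 9.81 and 9.84 in the males, and in AD-GE it was 9.75 and 8.98 in the females and 9.45 and 10.00 in the males. KLF10 in AD-GE-RES was 10.53 and 10.01 in the females and 10.06 and 9.85 in the males, and in AD-RES it was 9.66 and 9.55 in the females and 9.96 and 10.22 in the males. Within CT-GE-RES both males lay below both females, whereas in CT both males lay above both. Its group means ran from CT-GE-RES through AD-GE, AD-RES, CT and AD to AD-GE-RES, with no neighbouring gap above the pooled SD.

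ZFP36, the mRNA decay factor, had the narrowest range of the members other than SOCS3. ZFP36 in CT was 10.47 and 10.18 in the females and 9.87 and 9.49 in the males, and in CT-GE-RES it was 9.58 and 9.82 in the females and 9.42 and 9.83 in the males. ZFP36 in AD was 10.55 and 10.05 in the females and 10.02 and 9.88 in the males, and in AD-GE it was 10.08 and 9.71 in the females and 9.81 and 10.37 in the males. ZFP36 in AD-GE-RES was 9.70 and 9.63 in the females and 10.09 and 9.84 in the males, and in AD-RES it was 9.58 and 9.14 in the females and 9.78 and 9.97 in the males. The groups overlapped except AD, which lay above CT-GE-RES, and female AD-RES 2 was the lowest pig. Means followed the order AD-RES, CT-GE-RES, AD-GE-RES, AD-GE, CT and AD, with no neighbouring gap above the pooled SD.

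SOCS1, the JAK inhibitor, was read mainly from its leading probe set. SOCS1 in CT was 5.82 and 5.77 in the females and 6.04 and 6.22 in the males, and in CT-GE-RES it was 5.38 and 4.90 in the females and 6.05 and 6.54 in the males. SOCS1 in AD was 6.13 and 5.82 in the females and 7.28 and 7.14 in the males, and in AD-GE it was 6.19 and 5.31 in the females and 6.63 and 6.56 in the males. SOCS1 in AD-GE-RES was 6.55 and 6.17 in the females and 6.57 and 6.36 in the males, and in AD-RES it was 5.93 and 6.11 in the females and 6.23 and 6.13 in the males. The 2 highest pigs of all were the AD males, at 7.28 and 7.14, and the lowest was female CT-GE-RES 2. Both males lay above both females in 5 of the 6 groups, AD-GE-RES being the exception. Group means ran from CT-GE-RES through CT, AD-RES, AD-GE and AD-GE-RES to AD, and no neighbouring gap exceeded the pooled SD. The second and the third SOCS1 probe sets correlated with the leading one at r = 0.68 and 0.66 over the arrays but only at 0.18 with each other.

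SOCS3, which inhibits JAK signalling at receptors such as that of interleukin-6, lay near the low end of the array throughout. SOCS3 in CT was 3.70 and 4.07 in the females and 4.00 and 3.33 in the males, and in CT-GE-RES it was 3.99 and 3.69 in the females and 3.60 and 3.93 in the males. SOCS3 in AD was 4.13 and 4.32 in the females and 4.15 and 4.08 in the males, and in AD-GE it was 3.84 and 3.93 in the females and 3.86 and 4.00 in the males. SOCS3 in AD-GE-RES was 4.09 and 3.84 in the females and 3.78 and 3.40 in the males, and in AD-RES it was 3.63 and 3.47 in the females and 3.69 and 4.03 in the males. The 4 AD pigs lay above every pig of CT, CT-GE-RES, AD-GE and AD-RES and overlapped only AD-GE-RES. Means were lowest in AD-RES, then CT, AD-GE-RES, CT-GE-RES, AD-GE and AD, and the last step, 0.26 against a pooled SD of 0.09, was the only one above its spread.

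**Figure D2:**
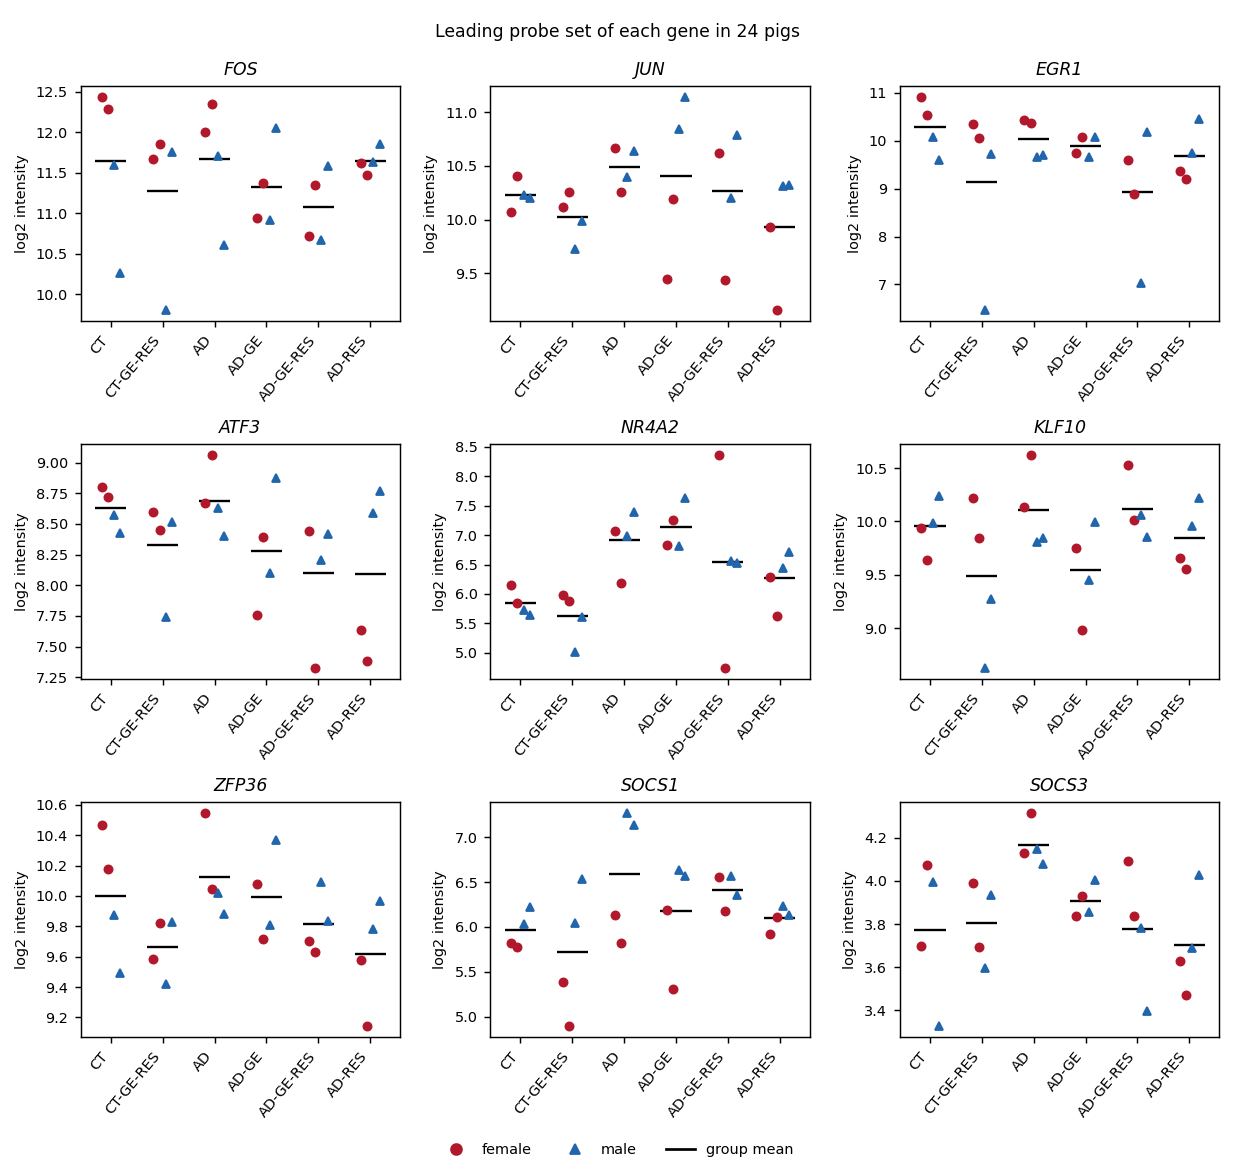
Log2 intensity of the leading probe set of each of the 9 genes in 24 pigs, by diet group, with circles for females, triangles for males and a bar at each group mean; the y axes differ between genes. NR4A2 is at or below 6.14 in every chow pig, SOCS3 is highest in AD, and the EGR1 panel shows 2 males at 7.03 and 6.46 below the rest.

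The first comparison of the study asks how PBMNCs of pigs on the atherogenic diet differ from those of pigs on chow. Between AD and CT, 8 of the 9 leading probe sets were higher in AD (median difference 0.15, from −0.24 for EGR1 to 1.07 for NR4A2), beside a median of −0.01 over the 6033 named genes. Without CT 4, the array least like the others (median r with them 0.957), only 5 of 9 were higher (median 0.19), as were 5 without AD 2 (median 0.15). In bulk RNA, fewer cells of a type and less RNA per cell cannot be told apart. No member was called: limma's Benjamini-Hochberg adjusted p was under 0.05 for 0 of 9 members, as it was for 0% of the 17999 probe sets tested. Unadjusted p was under 0.05 for 4 of the 13 member probe sets, 2 of them SOCS1 sets, against 6.38% of all probe sets. SOCS1 differed by 0.63 (SE 0.23, limma adjusted p = 0.757), from 5.96 ± 0.21 (SD, n = 4) in CT to 6.59 ± 0.72 (SD, n = 4) in AD, and the groups overlapped. The third SOCS1 probe set differed by 0.29 (SE 0.13), and the second by 0.14 (SE 0.25). SOCS3 was 4.17 ± 0.10 (SD, n = 4) in AD and 3.77 ± 0.34 (SD, n = 4) in CT, and NR4A2 6.91 ± 0.51 (SD, n = 4) and 5.84 ± 0.22 (SD, n = 4), both with a limma adjusted p of 0.757. These were the 2 of 9 members whose AD and CT pigs did not overlap, against 2.74% of all probe sets. FOS (0.02, 95% interval −0.89 to 0.94), ATF3 (0.06, −0.56 to 0.68) and EGR1 (−0.24, −1.54 to 1.05) had differences near 0 with wide intervals. The second EGR1 probe set differed by −0.34 (SE 0.62) and the third by 0.57 (SE 0.81), so the sign for EGR1 depended on the probe set. SOCS3 differed by 0.39, and by 0.25 without CT 4.

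Cell type marker lists were shifted in both directions between AD and CT, with no marker gene called by limma. T cell markers were higher in AD for 11 of 12 genes (median 0.31), with list means of −0.21 to 0.34 in AD and −1.09 to 0.04 in CT, relative to the mean over all arrays. Platelet markers were lower for 7 of 9 (−0.67, from −1.05 to 0.74 in AD and −0.33 to 1.61 in CT). Erythroid markers were lower for 6 of 8 (−0.42, from −0.63 to 0.56 and −0.52 to 1.64), and B cell markers for 4 of 4 (−0.35, from −0.69 to 0.49 and −0.07 to 0.54). CT 4 was the lowest CT pig in T cell markers and the highest in erythroid markers. The 3′ to 5′ ratio was 1.64 to 4.39 in CT and 1.37 to 2.95 in AD, ranges that overlapped, and it was not tested between the groups. With the ratio as a covariate 5 of 9 leading probe sets were higher in AD (median 0.07). The part of cell makeup in the members' differences was not tested beyond the relations given below.

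The AD-CT difference was also read in each sex, from 2 against 2 pigs with the spread of all 12 diet and sex groups. SOCS1 was higher in AD males than in CT males by 1.08 (SE 0.25, limma adjusted p = 0.0443), a call that 1.34% of probe sets shared in that contrast. In females the difference was 0.18 (SE 0.25). The difference between the sexes itself, 0.90, had a limma adjusted p of 0.255, so a difference between males and females was not shown, and it was called for 0.117% of all probe sets and for 0 of 9 members. NR4A2 differed by 1.5 in males and 0.64 in females (interaction adjusted p = 0.716 in limma).

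NR4A2 and SOCS1 also had the smallest p of the members when the 4 atherogenic groups were set against the 2 chow groups, a contrast added after the group levels had been seen. NR4A2 was 6.71 ± 0.82 (SD, n = 16) on the atherogenic diets and 5.73 ± 0.34 (SD, n = 8) on chow, a difference of 0.98 (SE 0.29, limma adjusted p = 0.129), and SOCS1 differed by 0.48 (SE 0.14, adjusted p = 0.129), with 0 of 9 members and 0% of probe sets called. Over 34 alternatives the NR4A2 difference ran from 0.82 to 1.14, with limma adjusted p from 0.0189 to 0.308. NR4A2 was called in only 1 of them, the one without AD-GE-RES 2, its lowest pig. Leaving out the lowest pig of the higher side widens the difference in advance, so that call adds no support. The test for any difference among the 6 groups called 0 of 9 members and 0% of probe sets, with SOCS1 (limma F test, adjusted p = 0.452) and NR4A2 (0.480) nearest.

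**Figure D3:**
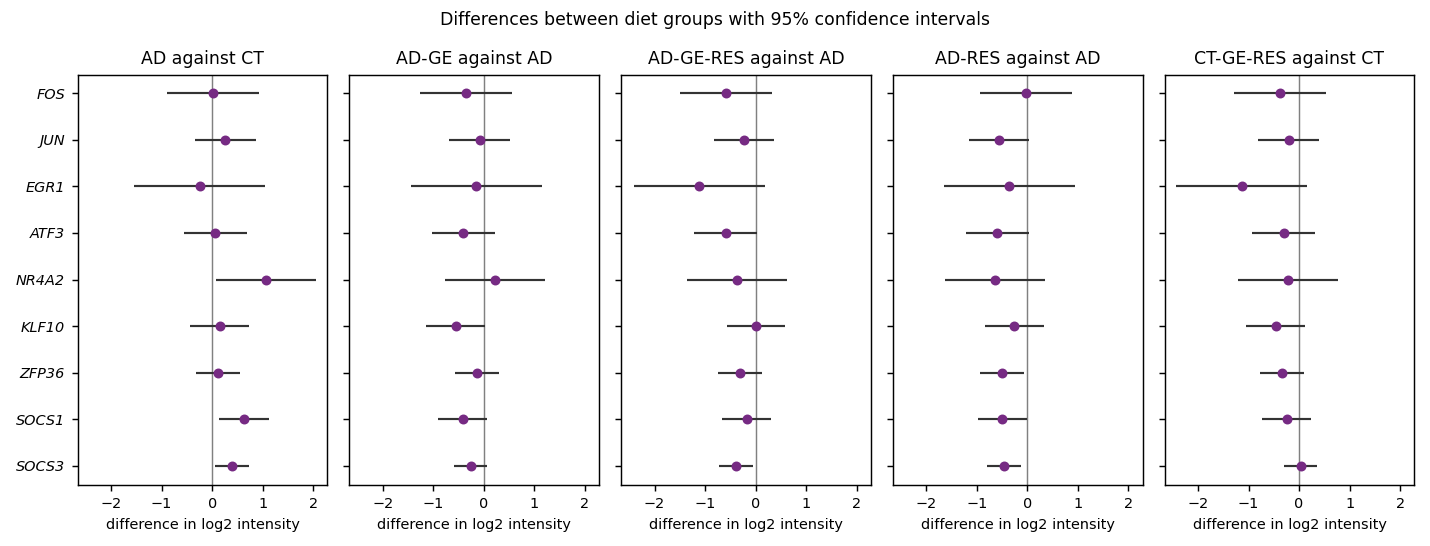
Differences in log2 intensity (x axis, points) with 95% confidence intervals (lines) for the leading probe set of the 9 genes in the 5 comparisons of the study. Intervals lie wholly above 0 for NR4A2, SOCS1 and SOCS3 in AD against CT, and wholly below 0 for SOCS3 in AD-GE-RES against AD and for ZFP36, SOCS1 and SOCS3 in AD-RES against AD; none of these passed the adjusted threshold.

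The next comparisons ask what grape extract, resveratrol or both do on top of the atherogenic diet, and all 3 use the same 4 AD pigs. With grape extract alone (AD-GE against AD), 8 of 9 leading probe sets were lower (median −0.26), beside a median of −0.02 over all named genes. Again 0 of 9 members passed limma's adjusted threshold, as did 0% of probe sets, and 0 of 13 member probe sets had an unadjusted p under 0.05, against 6.09% of all. KLF10 was 9.55 ± 0.44 (SD, n = 4) in AD-GE and 10.10 ± 0.38 (SD, n = 4) in AD, a difference of −0.56 (SE 0.28, limma adjusted p = 0.820). SOCS1 differed by −0.42 (SE 0.23, limma adjusted p = 0.822). NR4A2 was the exception to the common sign, at 0.22 (SE 0.47). The common sign was not seen in males, where 4 of 9 were lower (median 0.04), against 8 of 9 in females (median −0.49), and KLF10 was −0.10 in males and −1.01 in females (interaction adjusted p = 0.984 in limma). SOCS3 was the 1 member without overlap, with 3.84 to 4.00 in AD-GE below the 4.08 to 4.32 of AD, against 4.72% of probe sets without overlap.

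With the enriched extract (AD-GE-RES against AD), 8 of 9 leading probe sets were lower (median −0.36, all named genes 0.02), and KLF10 was at 0.01. Limma called 0 of 9 members and 0% of probe sets, and 1 of 13 member probe sets had an unadjusted p under 0.05, against 2.4% of all. That set was SOCS3, at 3.78 ± 0.29 (SD, n = 4) against 4.17 ± 0.10 (SD, n = 4), with a limma adjusted p of 1.00. EGR1 had the largest difference, −1.12 (SE 0.62), with the low male AD-GE-RES 3 in the group, and the difference was −0.55 without that pig. In females 8 of 9 were lower (median −0.43) and in males 7 of 9 (−0.20). Members whose pigs did not overlap numbered 0 of 9, against 1.26% of probe sets.

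With resveratrol (AD-RES against AD), all 9 leading probe sets were lower (median −0.49, from −0.64 for NR4A2 to −0.02 for FOS), beside −0.02 over all named genes. None was called (0 of 9 and 0% of probe sets by limma's adjusted p), while 4 of 13 member probe sets, 2 of them for SOCS1, had an unadjusted p under 0.05, against 4.45% of all. SOCS3 was 3.70 ± 0.23 (SD, n = 4) in AD-RES, a difference of −0.46 from AD (SE 0.16, limma adjusted p = 0.980), and was the 1 member of 9 without overlap, against 2.81% of probe sets. ZFP36 was 9.62 ± 0.35 (SD, n = 4) against 10.12 ± 0.29 (SD, n = 4), a difference of −0.50 (SE 0.21, limma adjusted p = 0.980). SOCS1 differed by −0.49 (SE 0.23, limma adjusted p = 0.980), and the third probe set by −0.28 (SE 0.13).

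Read within each sex, the resveratrol differences were unequal in size or sign for most members, though no test of a sex difference passed. In females 8 of 9 leading probe sets were lower (median −0.77) and in males 5 of 9 (median −0.07). NR4A2 was nearly equal in the sexes, at −0.68 in females and −0.61 in males, and SOCS3 was lower in both, at −0.67 and −0.25. In females ATF3 was at 7.63 and 7.38 in AD-RES against 8.67 and 9.06 in AD, a difference of −1.36 (SE 0.33, limma adjusted p = 0.181), and in males the difference was 0.17. ZFP36 differed by −0.93 in females and −0.07 in males, KLF10 by −0.77 and 0.26, and JUN by −0.92 and −0.20. FOS differed by −0.63 in females and 0.59 in males, and EGR1 by −1.13 and 0.41. SOCS1 ran the other way, at 0.04 in females and −1.03 in males. The tests of these sex differences gave limma adjusted p of 0.219 for ATF3, 0.309 for ZFP36, 0.304 for KLF10, 0.591 for JUN, 0.578 for FOS, 0.655 for EGR1 and 0.247 for SOCS1, with 0 of 9 members and 0% of probe sets called. The corresponding tests called 0 of 9 members for AD-GE against AD (0% of probe sets), for AD-GE-RES against AD (0.0111%) and for CT-GE-RES against CT (0.289%).

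Monocyte markers were lower in the supplemented groups than in AD, with no call. Of 17 measured genes of the monocyte list, 17 were lower in AD-GE than in AD (median −0.49), 16 in AD-GE-RES (−0.32) and 16 in AD-RES (−0.45), none called by limma, while 10 were higher and 7 lower in AD than in CT (0.03). The mean of the list, relative to its mean over all arrays, was 0.15 to 0.47 in the AD pigs, −0.59 to −0.11 in AD-GE, −0.33 to 0.61 in AD-GE-RES and −0.83 to 0.37 in AD-RES. Within AD-RES the females were at −0.83 and −0.51 and the males at 0.27 and 0.37. Both AD-RES males also lay above both females on the leading probe set of every member. The neutrophil, platelet and erythroid lists split the same way, the T cell and B cell lists split the opposite way, and the NK and cytotoxic list overlapped. The split was therefore not particular to the monocyte list or to single members. The monocyte list held only genes past the filter, 17 of the 22 named, so a marker below the cutoff of 3.57 could not appear in it. Its lowest probe set, that of ITGAM, had a mean of 3.58, just above that cutoff. Neutrophil genes were lower in 5, 6 and 6 of 6 measured. Other lists shifted too. In AD-RES against AD, erythroid genes were higher in 6 of 8 (median 0.51), platelet genes in 6 of 9 (0.32) and T cell genes in 9 of 12 (0.25). B cell genes were lower there in 4 of 4 (−0.25). In AD-GE against AD, platelet genes were lower in 8 of 9 (−0.27) and erythroid genes higher in 5 of 8 (0.30). The part of these cell types in the members' differences was not tested either.

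On chow, the comparison of CT-GE-RES with CT asks what the enriched extract does without the atherogenic feed, and it shares the CT pigs with the first comparison. Of the 9 leading probe sets 8 were lower in CT-GE-RES (median −0.30, all named genes 0.04), and 6 of 9 (median −0.07) without CT-GE-RES 3 and AD-GE-RES 3. Limma called 0 of 9 members and 0% of probe sets, 0 of 13 member probe sets had an unadjusted p under 0.05 against 6.8% of all, and 0 of 9 members had groups without overlap against 4.03%. EGR1 was 9.15 ± 1.81 (SD, n = 4) against 10.29 ± 0.57 (SD, n = 4), a difference of −1.14 (SE 0.62, limma adjusted p = 0.700), and without CT-GE-RES 3 and AD-GE-RES 3 it was −0.26. KLF10 differed by −0.46 (SE 0.28, limma adjusted p = 0.700), with −1.16 in males and 0.24 in females. The test of that sex difference in KLF10, −1.40, gave a limma adjusted p of 0.160. T cell markers were higher in 12 of 12 measured genes (median 0.53), with list means of −1.09 (in CT 4) to 0.04 in CT pigs and 0.08 to 0.40 in CT-GE-RES pigs. Erythroid markers were lower in 7 of 8 (−0.77, from −0.52 to 1.64 in CT and −1.02 to 0.10 in CT-GE-RES), and neutrophil markers in 5 of 6 (−0.54, from 0.02 to 1.37 and −0.55 to 0.07). The part of these cell types was not tested.

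Over all 24 pigs, sex was the only factor with a called member. SOCS1 was 6.48 ± 0.40 (SD, n = 12) in males and 5.84 ± 0.46 (SD, n = 12) in females, a difference of 0.64 (SE 0.13, 1.56-fold, limma adjusted p = 0.0464). Of the 9 members 1 was called, against 0.267% of probe sets. The second SOCS1 probe set differed the same way by 0.39 (SE 0.14, limma adjusted p = 0.351), and the third by 0.07 (SE 0.07). Unadjusted p was under 0.05 for 3 of the 13 member probe sets, against 10.3% of all, the remaining one being JUN at 0.35 (SE 0.17, limma adjusted p = 0.479). FOS and EGR1 had the opposite sign, at −0.47 (SE 0.25) and −0.60 (SE 0.36) without passing the test. The SOCS1 call was close to the threshold and was lost in 23 of 33 alternatives, while over all 33 the difference stayed between 0.36 and 0.74. B cell markers had the opposite sign to SOCS1 between the sexes: 4 of 4 measured genes were lower in males (median −0.61), 1 of them called, and the list mean ran from −0.44 to 0.84 in females and from −0.77 to 0.33 in males. SOCS1 and that list mean had r = −0.50 over all pigs and −0.08 after group and sex means were removed, and the part of B cells in the sex difference was not tested further.

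**Figure D4:**
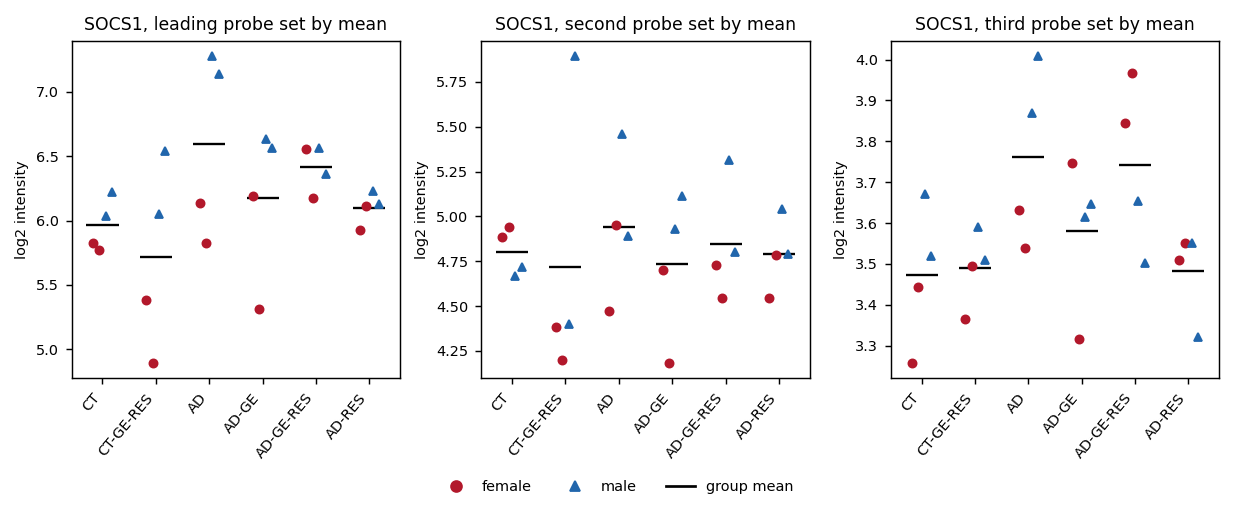
Log2 intensity of the 3 SOCS1 probe sets by diet group, with circles for females, triangles for males and bars at group means. On the leading probe set both males lie above both females in 5 of 6 groups, and the AD males at 7.28 and 7.14 are the highest pigs; the second and the third probe set show that order in 4 and 3 groups.

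Some of the members varied together from pig to pig. Over the 24 pigs 33 of 36 gene pairs had a positive Pearson r (median 0.36), and 10 pairs, all positive, were related at an adjusted p under 0.05 (permutation test with 100000 resamples, two-sided, Benjamini-Hochberg over 36 pairs). No such share was computed over pairs of other genes on these arrays, so the counts are not shown to be particular to the members. FOS and EGR1 were closest, with r = 0.73 (permutation p = 1e-04, adjusted 0.0036) and Spearman's rho = 0.77 (adjusted permutation p = 0.00048), and r was 0.65 without the 2 pigs farthest in FOS. JUN went with ATF3 (r = 0.69, rho = 0.51, adjusted permutation p = 0.0036 and 0.0442, r = 0.57 without the 2 farthest pigs). JUN also went with NR4A2 (r = 0.64, rho = 0.63, adjusted permutation p = 0.0079 and 0.0084, r = 0.59 without them). ATF3 and ZFP36 had r = 0.62 and rho = 0.64 (adjusted permutation p = 0.0088 and 0.0084, r = 0.51 without the 2 farthest). The pairs JUN with ZFP36, FOS with ZFP36 and ZFP36 with SOCS3 were less firm, since r was 0.25, 0.40 and 0.37 without the 2 farthest pigs, from 0.51, 0.53 and 0.51. FOS and JUN, the AP-1 partners, had r = 0.17 and rho = 0.21, and FOS and NR4A2 0.02. SOCS1 held all 3 negative pairs, with r = −0.31 to FOS, −0.23 to EGR1 and −0.03 to ATF3, and was positive with the other 5 members, from 0.07 for KLF10 to 0.36 for NR4A2. None of its 8 pairs was related by the test, and no pair of KLF10 was.

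The relations were also computed within groups. On residuals from group and sex means 12 pairs were related, 8 of them among the 10 above, and 8 pairs were related when the 3′ to 5′ ratio was removed as well; permutation of residuals takes no account of the fitted terms. FOS and EGR1 had r = 0.68 and 0.64 in these fits. On residuals from group and sex means SOCS1 turned negative with JUN (r = −0.26), KLF10 (−0.14) and ZFP36 (−0.10). It stayed positive with NR4A2 (0.12) and SOCS3 (0.07), and none of its pairs was related there. No member of 9 was related to the 3′ to 5′ ratio over all pigs, FOS being nearest (r = −0.47, adjusted permutation p = 0.192), but on residuals FOS had r = −0.68 (adjusted permutation p = 0.0021). Of 63 relations between a member and the mean of a cell type marker list 1 passed, ATF3 with the monocyte list (r = 0.70, rho = 0.72, adjusted permutation p = 0.0094, r = 0.68 without the 2 farthest pigs). On residuals 10 of the 63 passed. ATF3 was related to the monocyte (r = 0.64), platelet (0.63) and B cell lists (−0.56), EGR1 to the monocyte (0.54) and B cell lists (−0.56), and KLF10 to the erythroid (0.62) and monocyte lists (0.53). The other 3 were NR4A2 with the B cell list (r = −0.68), FOS with the T cell list (0.57) and ZFP36 with the NK and cytotoxic list (0.57), and adjusted permutation p for the 10 ran from 0.0206 to 0.0464. No share of related genes was computed over other genes for these lists. The counts of 1 and 10 are therefore not shown to be particular to the members.

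**Figure D5:**
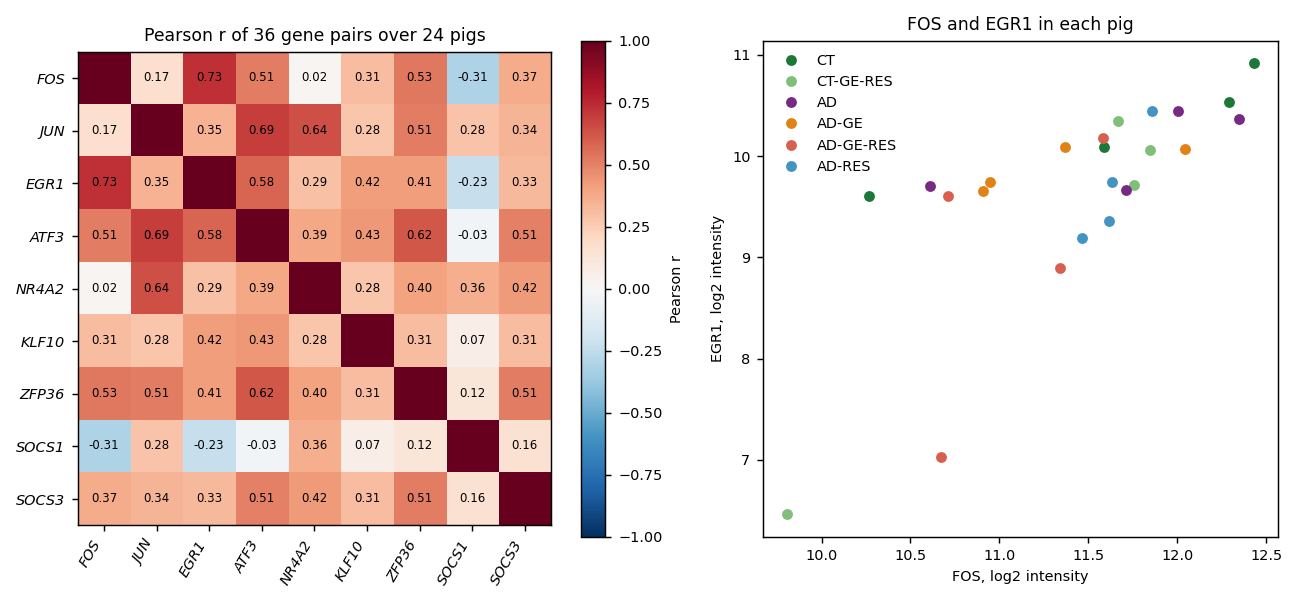
Left, Pearson r of the leading probe sets for all 36 gene pairs over 24 pigs, coloured from −1 (blue) to 1 (red). Right, FOS against EGR1 in log2 intensity, 1 point per pig coloured by diet group; r is 0.73, and the 2 pigs with EGR1 at 7.03 and 6.46 lie low in FOS too.

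Some pigs were low or high in most members at once. CT-GE-RES 3 was the lowest pig of its group in 8 of 9 members, as was AD-RES 2, and AD-RES 4 and AD-GE 4 were the highest of theirs in 8 and 7. The same ranks were not counted over all probe sets, so these counts are not shown to be particular to the members. CT 4 was the lowest of CT in 6 members, and its 3′ to 5′ ratio of 4.39 was the highest of all arrays. The ratio was 3.21 in CT-GE-RES 3, the highest of its group, and 1.73 in AD-RES 2, the lowest of its group.

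Among the other 6024 genes, those most like the mean of the standardised members over 24 arrays were KLF4 (r = 0.83), a Krüppel-like factor, NFIL3 (0.82), a basic leucine zipper factor, BTG2 (0.82), an antiproliferative gene, PLK3 (0.81), a polo-like kinase, PHLDA2 (0.80) and CDA (0.79), cytidine deaminase. Their r on residuals from group and sex means was 0.77 to 0.91. With FOS alone the nearest were IER2 (r = 0.75), itself an immediate early gene, DUSP1 (0.70), a phosphatase that turns MAP kinases off, PIK3AP1 (0.64) and NUDT7 (0.63). The r of DUSP1, PIK3AP1 and NUDT7 with the 3′ to 5′ ratio was −0.61, −0.73 and −0.71, and that of IER2 −0.17. These values describe arrays that share animals and preparation.

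Further genes of the same pathways showed the signs of the members in some comparisons. Measured were 20 other immediate early and feedback genes (dual-specificity phosphatases, IER and NF-kB feedback genes among them). Of these 18 were higher in AD than in CT (median 0.34), beside 2873 of all 6033 named genes. With grape extract, with both and with resveratrol 4, 3 and 3 were higher than in AD (medians −0.13, −0.20 and −0.31). Over all named genes those counts were 2738, 3401 and 2739. On chow 5 of the 20 were higher in CT-GE-RES than in CT (−0.16), beside 3576 of all named genes. Of 15 mRNAs with AU-rich elements that ZFP36 binds, 14 were higher in AD than in CT (0.48) and 3 in AD-RES than in AD (−0.45). In AD-GE and AD-GE-RES 2 and 4 were higher than in AD (−0.14 and −0.16). On chow 9 of them were higher in CT-GE-RES than in CT (0.06), unlike most members. The 11 other immediate early transcription factors had 8 higher in AD (0.26) and 9 lower in AD-RES (−0.52). In AD-GE against AD they split into 5 higher and 6 lower (−0.05), where most members were lower. In AD-GE-RES against AD 8 were lower (−0.14), and on chow 9 were lower in CT-GE-RES (−0.13). Genes of the MAP kinase and SRF or CREB input had 4 of 11 higher in AD (−0.08), and of the cytokine receptor and JAK-STAT genes 12 of 21 were higher (0.06). How these counts depend on CT 4 or on the 3′ to 5′ ratio is not given here. No gene of these lists was called by limma in the 5 comparisons. The 2 with the smallest p between AD and CT were MAPK9, the kinase JNK2 (−0.41, SE 0.12), and RGS1, a brake on G protein signalling (1.99, SE 0.64), both with a limma adjusted p of 0.757. In AD-GE against AD they were SGK1, a serum-induced kinase (−0.51, SE 0.20), and CYR61 (0.30, SE 0.12), both at a limma adjusted p of 0.804. In AD-RES against AD they were SGK1 (−0.75, SE 0.20) and NFKBIA, the inhibitor of NF-kB (−0.69, SE 0.24), at 0.980. In AD-GE-RES against AD they were MAPK9 (0.34, SE 0.12) and MAP2K2, a kinase that activates ERK (0.32, SE 0.13), at a limma adjusted p of 1.00. On chow they were STAT4, which signals for interleukin-12 (0.73, SE 0.23), and CREB1 (0.66, SE 0.26), at 0.700.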

How the data were processed

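The authors' deposited table holds 1 linear intensity for each of 24123 probe sets and 24 arrays. RMA and GCOS are the tools named per the submitters' processing notes, with no version or role given in the sources used here. Intensities were taken to log2 here. Of 23999 probe sets that are not controls, the lowest 25% by mean were left out, leaving 17999 (8540 with 1 symbol, 168 with several, 9291 with none). Limma 3.58.1 (R 4.3.3) fitted the 6 group means with sex as a covariate over 24 arrays, two-sided, with Benjamini-Hochberg adjustment over all 17999 and a threshold of 0.05. Contrasts within a sex and between sexes came from a fit of 12 diet and sex groups. The p-values of limma set a difference against the spread between animals. Relations between members used permutation (scipy 1.17.1).

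The members, gene lists and marker lists were chosen with earlier results of these data known. Named by rule were all 9 members, in each comparison those with an unadjusted p under 0.05 or else the 2 with the smallest p, the 2 list genes with the smallest p, and the genes most alike. The fit was tested on simulated data. Alternatives were the filter, normalization, array weights, the 3′ to 5′ ratio as a covariate, the prior, the mean of a gene's probe sets, each sex alone and each animal left out. Sequences and genome positions of the members were not used here.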

Additional observations from a re-analysis of the deposited data

Results flagged for a closer look

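In 4 of 78 sets of 4 animals (13 probe sets in 6 groups), 1 animal lay far from the other 3, with a gap, relative to the range, above Dixon's 95% critical value; chance gives about 1 in 20. FOS in CT-GE-RES 3 was 9.80, against 11.67 to 11.85 in the other CT-GE-RES pigs. EGR1 in the same male was 6.46 on the leading probe set, against 9.72 to 10.35, and 4.66 on the second, against 7.27 to 7.70. SOCS1 in CT-GE-RES 4, also a male, was 5.89 on the second probe set, against 4.2 to 4.40. All 4 values were in CT-GE-RES, and 3 of them in 1 pig. The low EGR1 of AD-GE-RES 3 was not among them; its group ran from 7.03 to 10.18 on the leading probe set.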

How the results depend on the processing

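The 5 diet comparisons and the test among 6 groups gave 0 members called under every alternative run, except AD against CT within males, where 1 (SOCS1) was called. In the comparison of the sexes 1 member was called in 10 of 33 alternatives and 0 in 23. The count was 0 with no filter, with arrays centred on their median, with the 3′ to 5′ ratio as a covariate, with probe sets averaged by gene and without AD-GE-RES 3 and CT-GE-RES 3, and 0 to 1 when each animal was left out. The SOCS1 difference itself ranged from 0.36 to 0.74, with limma adjusted p from 0.0051 to 0.152. The pooled atherogenic groups against chow gave 0 to 1 when each animal was left out (NR4A2, without AD-GE-RES 2), and so did sex by diet for AD-GE-RES against AD (NR4A2 again, −2.38, without the same pig). On residuals 1 member, FOS, was related to the 3′ to 5′ ratio. Within females SOCS1 in AD-RES against AD was 0.040, and KLF10 in CT-GE-RES against CT 0.24, both with the sign opposite to the whole groups. No paired analysis was possible because the labels give no shared replicate numbers. The comparison of pooled diets, sex by diet for the supplements, the removal of 2 animals and the counts of higher members without CT 4 or AD 2 were chosen after seeing the data.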
